A study of Mus musculus with 6 samples.

Results

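The genes described here make and handle fatty acids: the enzymes that synthesise, desaturate and elongate them, the synthetases that activate them with coenzyme A, the enzymes that build them into triglyceride, and the proteins of lipid droplets. They were chosen by name, as 38 listed symbols, and all 38 matched a row of the deposited table of 53465 genes. Of these, 33 passed the filter on low counts and were tested among 14038 genes in all. Synthesis genes, acyl-CoA synthetases and droplet genes are set side by side. Library totals were 18733801 to 26533528 counts.

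The RNA came from 4T1, a mouse mammary carcinoma line, made resistant to axitinib, an inhibitor of VEGF receptor kinases. Both fractions derived from lesions after surgery in mice given 100 mg/kg/day axitinib and had since been cultured for more than 2 months with 0.5 µM axitinib. Cells were stained with C12FDG, which fluoresces after cleavage by β-galactosidase, and sorted into a high fraction (SM positive) and a low fraction (SM negative), with 3 libraries each. No untreated or axitinib-sensitive cells were among these samples, so the comparison is between high and low β-galactosidase signal within resistant cells. Whether the libraries of a fraction were grown or sorted separately is not stated, and a p-value therefore reflects only how far these libraries lie apart, which may be technical variation.

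Fatty acids are made in the cytosol from acetyl-CoA, which ATP-citrate lyase (Acly) and the acetyl-CoA synthetase Acss2 supply. Acetyl-CoA carboxylase makes malonyl-CoA and fatty acid synthase (Fasn) extends it to a saturated chain, under control of the factors SREBP1 and ChREBP. A free fatty acid is inert until an acyl-CoA synthetase activates it, and then it can be desaturated, elongated, oxidised or stored as triglyceride in droplets coated by perilipins. Tumour cells commonly run this pathway at a high rate, and lipid droplets are often described in senescent cells, which high β-galactosidase activity is used to mark.

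Among the 5 acyl-CoA synthetases the fractions differed in both directions. Acsbg1 fell 1.66-fold in SM positive cells, and its libraries did not overlap between the fractions. Nor did those of Acsl4 and Acsl1, which were higher, or of Acsl5, which was lower; of all tested genes, 10.4% were higher and 9.48% lower without overlap. The synthesis enzymes Fasn, Acaca and Acly overlapped between the fractions, and so did the 5 tested droplet coat and lipase genes. The RefSeq sequence upstream of the start of the 4 synthetases that passed the test with the replicate number as a block is shown first, because these paralogs share a reaction and differed in direction. Each line gives 250 bases (GRCm38.p6), 5′ to 3′ on the gene's strand and ending just before the RefSeq start, with GC boxes (GGGCGG) and CCAAT boxes in either orientation in capitals. Acsl3 (chr1:78657575-78657824, plus strand) and Acsl4 (chrX:142390536-142390785, minus strand) are the higher pair, and Acsl5 (chr19:55253119-55253368, plus strand) and Acsbg1 (chr9:54661886-54662135, minus strand) the lower.
Acsl3: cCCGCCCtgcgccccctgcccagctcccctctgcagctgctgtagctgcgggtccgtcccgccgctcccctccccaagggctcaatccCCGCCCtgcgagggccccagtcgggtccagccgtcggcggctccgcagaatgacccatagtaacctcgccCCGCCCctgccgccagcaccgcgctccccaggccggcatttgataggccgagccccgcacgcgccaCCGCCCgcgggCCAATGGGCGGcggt
Acsl4: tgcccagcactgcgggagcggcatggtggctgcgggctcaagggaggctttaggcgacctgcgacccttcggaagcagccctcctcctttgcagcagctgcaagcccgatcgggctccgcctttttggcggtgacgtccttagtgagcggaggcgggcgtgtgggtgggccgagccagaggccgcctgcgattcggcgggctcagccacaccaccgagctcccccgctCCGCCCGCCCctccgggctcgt
Acsl5: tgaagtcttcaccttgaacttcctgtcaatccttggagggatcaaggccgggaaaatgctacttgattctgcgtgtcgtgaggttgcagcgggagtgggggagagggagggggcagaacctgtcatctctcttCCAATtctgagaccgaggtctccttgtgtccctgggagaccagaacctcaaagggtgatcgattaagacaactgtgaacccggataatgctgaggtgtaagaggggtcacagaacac
Acsbg1: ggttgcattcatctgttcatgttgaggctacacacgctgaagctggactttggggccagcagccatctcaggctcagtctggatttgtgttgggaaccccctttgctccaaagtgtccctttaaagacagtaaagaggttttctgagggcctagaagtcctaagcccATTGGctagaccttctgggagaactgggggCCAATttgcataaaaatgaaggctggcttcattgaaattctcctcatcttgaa
None of these 4 windows overlaps an annotated exon. That of Acsl5 lies inside the annotated gene, which starts at 55251938, so it precedes an internal RefSeq start. GC content was 75.6% for Acsl3 and 70.8% for Acsl4, against 52.8% for Acsl5 and 48.4% for Acsbg1. The 2 windows of Acsl1, which was higher but not called, held 72.0% and 48.4% GC, with 4 and 0 GC boxes. Among the other genes called with the block, the higher Lpin1 and Elovl7 held 54.8% and 73.6% GC, with 0 and 3 GC boxes. The lower Fads3 and Plin2 held 74.4% and 61.6% GC, with 2 and 0 GC boxes. Scd2 and Fabp5 had no window. GC content over all windows was not computed, and a link between sequence and direction was not tested. The GC box occurred 5 times upstream of Acsl3 and 2 times upstream of Acsl4, and the CCAAT box 1, 1 and 2 times upstream of Acsl3, Acsl5 and Acsbg1. Over all 32851 RefSeq windows of this length, 32.7% hold a GC box and 33.8% a CCAAT box. Of the 41 windows of the listed genes, 53.7% hold a GC box and 48.8% a CCAAT box. The sterol regulatory element TCACNCCAC is the class of site that SREBP factors bind. It was in 1.05% of all windows and in 2 of the 41 windows (4.88%) found for 32 of the 38 genes, 1 each of Acsl1 and Mlxipl. Both of those windows lie inside the annotated gene, as does the window of Acaca. No window was available for Scd1, Scd2, Fads1, Dgat1, Dgat2 and Fabp5, so the site could not be looked for there. The E-box CACGTG was in 6.02% of all windows and 5 of the 41 (12.2%), and no difference in these shares was tested. These are matches of letters on either strand, and gene-level counts do not show which start was used.

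Levels were compared between genes in TPM, the share of transcripts, scaled after dividing counts by exon length. That length was the union of all annotated exons, such as 17074 bases for Acaca and 10483 for Acsl1. Where it exceeds the transcript present, a gene reads too low, so orders and shares between genes are approximate. Scd2, a stearoyl-CoA desaturase that places the first double bond, had the highest level at 927 ± 159.8 TPM in SM negative and 1085 ± 162 TPM in SM positive libraries (mean ± SD, n = 3, as for all means here). Its paralog Scd1 stood at 71.9 ± 11.9 and 76.4 ± 9.06 TPM. Acly, Fasn and Acsl5 came next after Scd2, at 240.4, 214 and 202 TPM over the 6 libraries, and these neighbours overlapped between libraries. Acaca, the cytosolic acetyl-CoA carboxylase, stood at 23.5 TPM and Acacb, its mitochondrial counterpart, at 1.09 TPM. So the cells carried transcripts of the whole synthetic route. Of the desaturases, Scd2 stood above Fasn. Scd1, Fads1, Fads2 and Fads3 stood below Fasn, at 74.1, 75.1, 99.9 and 41.4 TPM over the 6 libraries.

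**Figure D1:**
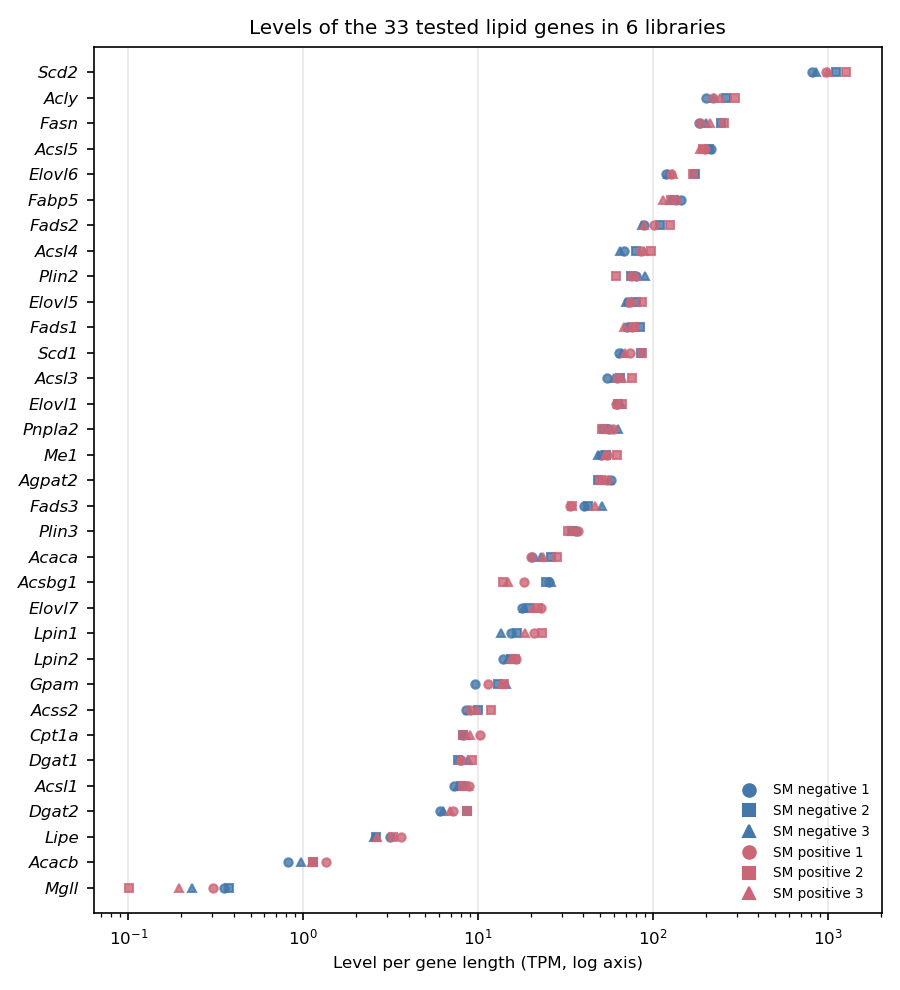
Level of each of the 33 tested genes in TPM on a log axis, 1 point per library, with blue for SM negative, red for SM positive and the symbol shape for the replicate number. Scd2 stands highest and Mgll lowest, and for most genes the fractions' points lie on top of each other.

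Of the 5 genes that were not tested, Cd36, a fatty acid uptake receptor, had 0 counts in all 6 libraries, which allows up to 0.113 to 0.160 CPM (counts scaled to the library's size; 3 counts in the largest and the smallest library, counting error only). Plin4, a perilipin, had 0 to 3 counts per library, and Fabp3, a fatty acid binding protein, 0 to 2.02. The ChREBP gene Mlxipl and the lipogenic factor Thrsp each had 0 to 2 counts. Differences near this floor could not have been seen. Among the tested genes, Mgll, the monoglyceride lipase, was the lowest at 4 to 17 counts per library.

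The replicate numbers were taken to pair the libraries, on a check given with the processing, and a second fit holds the number as a block. It is printed beside each result because it changed many calls. Without the block, edgeR's quasi-likelihood test called 1 of the 33 genes at an adjusted p of 0.05, lower in SM positive cells, where 0.214% of all tested genes were called lower, 1.14% higher and 1.35% in either direction. None of the 33 was called higher by that test or by limma-voom, DESeq2 called 2 (Acsl4 and Lpin1), and at an unadjusted p under 0.05 there were 3 higher and 2 lower (15.2% of the 33 against 13.6% of all genes). The block raised the calls to 5 higher and 5 lower, 30.3% of the 33, where it called 8.52% of all genes higher, 5.6% lower and 14.1% in either direction. The median log2 change of the 33 was 0.061 and that of all tested genes -0.00085. The fractions' libraries did not overlap for 4 genes that were higher and 2 that were lower, against 10.4% and 9.48% of all genes, beside 12.1% and 6.06% of the 33.

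**Figure D2:**
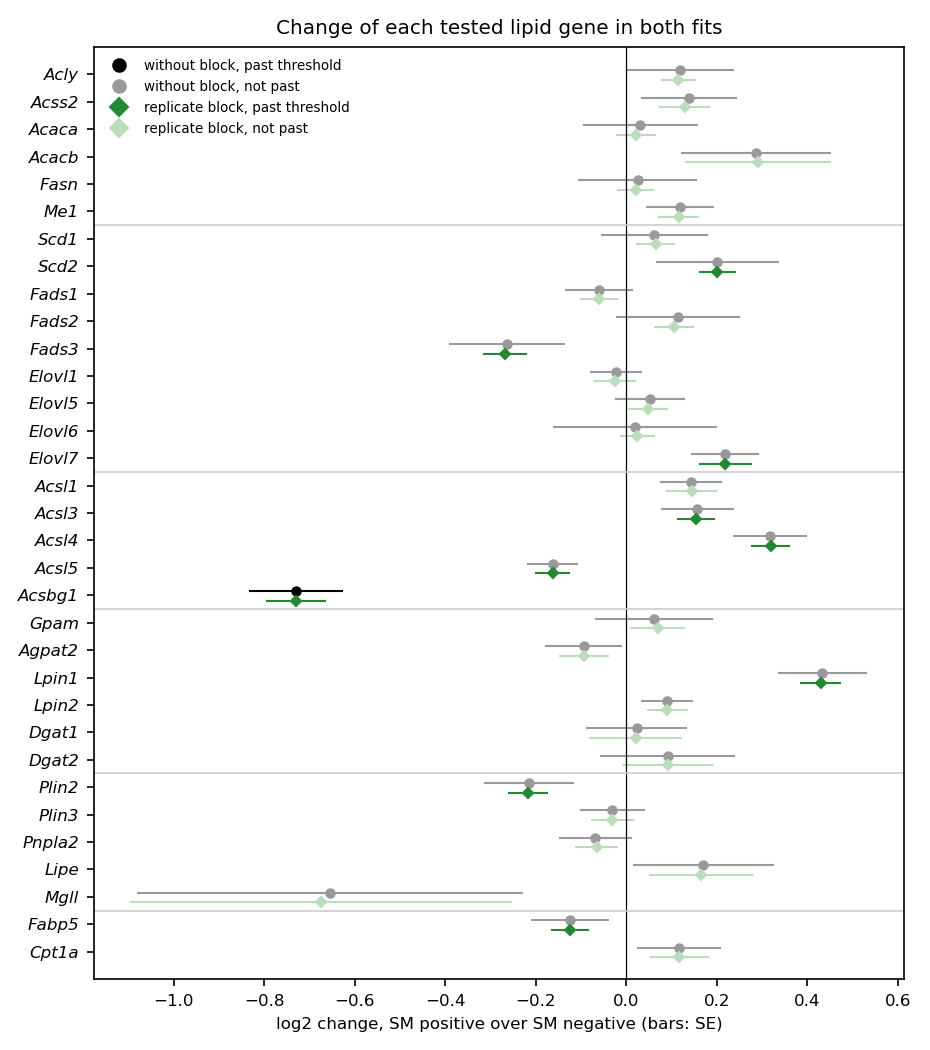
The log2 change of SM positive over SM negative for each tested gene, with its SE, without the block (circles) and with the replicate block (diamonds). Dark symbols passed an adjusted p of 0.05 and grey lines part the roles. Acsbg1 alone passed without the block and stands far to the left, Mgll has the widest bars, and Lpin1 and Acsl4 are the highest of the rest.

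Long-chain acyl-CoA synthetases join a fatty acid to coenzyme A, and family members differ in the chains they prefer and in where they sit. Acsbg1, the bubblegum-family synthetase for long and very long chains (ENSMUSG00000032281.11, chromosome 9, 54604877 to 54661870, minus strand), had 34.9, 32.2 and 34.4 CPM in SM negative libraries 1, 2 and 3, and 23.8, 18 and 19.2 CPM in SM positive libraries 1, 2 and 3. Every SM positive library lay below every SM negative one. The fall was 1.66-fold, from 33.8 ± 1.48 to 20.3 ± 3.05 CPM, a log2 change of -0.73 ± 0.104 (SE) (edgeR adjusted p = 0.0110, and 2.86e-07 with the block). Leaving out SM negative library 1, 2 or 3 or SM positive library 3 moved the adjusted p in edgeR to 0.0506, 0.0537, 0.0544 and 0.0531. Those fits have no block, and with the block the call held with any pair left out.

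Acsl4, which prefers arachidonic and other polyunsaturated acids and so feeds the lipids that oxidise in ferroptosis (ENSMUSG00000031278.12, chromosome X, 142317993 to 142390535, minus strand), was higher in SM positive cells. It had 139, 157 and 128 CPM in SM negative libraries 1, 2 and 3, and 166, 190.4 and 171 CPM in SM positive libraries 1, 2 and 3. The groups did not overlap, and the level in SM positive was 1.20, 1.21 and 1.34 times that of the same-number SM negative library. Its log2 change was 0.32 ± 0.0807 (SE), which did not pass without the block (edgeR adjusted p = 0.105) and passed with it (adjusted p = 3.49e-05) and in DESeq2 (adjusted p = 0.0219).

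Acsl5, a synthetase of mitochondria and endoplasmic reticulum linked to triglyceride synthesis, was the highest of the 5 per length. It had 397, 369.7 and 368 CPM in SM negative libraries 1, 2 and 3, and 351, 339.8 and 323 CPM in SM positive libraries 1, 2 and 3. All SM positive libraries were lower, at 0.884, 0.919 and 0.877 times their same-number partners. The log2 change was -0.16 ± 0.0557 (SE) (edgeR adjusted p = 0.230; with the block 0.00744), and its exons overlap those of Zdhhc6 on the opposite strand. The block call of Acsl5 held in 1 of the 3 fits that left out a pair.

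Acsl3, the synthetase that moves onto nascent lipid droplets, had 90.1, 103 and 95.3 CPM in SM negative libraries 1, 2 and 3, and 98.3, 119.5 and 103 CPM in SM positive libraries 1, 2 and 3. The fractions overlapped, but SM positive was higher in each pair, and the block fit called it higher (log2 change 0.15 ± 0.0426, adjusted p = 0.0191; 0.432 without the block). With any pair left out, that call was lost. Acsl1, the main synthetase of fat and muscle, ranged from 29.0 to 30.2 CPM in SM negative and from 31.1 to 33.5 CPM in SM positive libraries. These do not overlap, but neither fit called it (adjusted p = 0.401 and 0.0986). Its 95% interval with the block was 0.026 to 0.26 on the log2 scale, and its exons overlap Gm45244 on the opposite strand.

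The summed level of the 5 synthetases did not follow the fractions, at 367 to 387 TPM in SM negative and 364 to 387 TPM in SM positive libraries. Its make-up did. Acsl5 took 58.1%, 54.1% and 56.7% of that sum in SM negative libraries 1, 2 and 3, and 53.3%, 49.7% and 51.0% in SM positive libraries 1, 2 and 3. Acsl4 took 18.3%, 20.7% and 17.7% in SM negative and 22.7%, 25.1% and 24.3% in SM positive libraries. Acsbg1 took 6.80% ± 0.405 of the sum in SM negative and 4.18% ± 0.663 in SM positive libraries. None of these 3 shares overlapped between the fractions, as the levels of these 3 genes did not. Ratios of 2 genes within a library do not depend on how libraries are scaled. The TPM ratio of Acsl4 to Acsbg1 was 2.66, 3.25 and 2.48 in SM negative and 4.66, 7.04 and 5.95 in SM positive libraries. That of Acsl5 to Acsl4 was 3.17, 2.62 and 3.20 in SM negative and 2.34, 1.98 and 2.09 in SM positive libraries. Both ratios had to separate the fractions. Acsl4 was higher in every SM positive library than in any SM negative one, and Acsbg1 and Acsl5 were lower. The ratios and shares therefore restate those differences and are no further evidence for them. They were chosen after the values were seen and are given without a test.

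**Figure D3:**
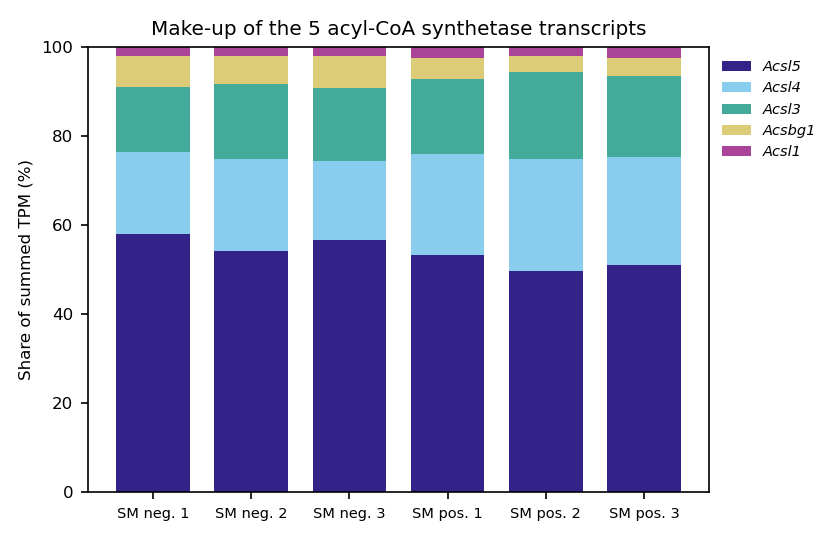
Share of the summed TPM of Acsl5, Acsl4, Acsl3, Acsbg1 and Acsl1 in each library, in percent. The Acsl4 band is taller and the Acsbg1 band thinner in the 3 SM positive bars, while Acsl5 stays the largest share in every library.

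No synthesis enzyme passed in any fit. Fasn had 760.4, 974 and 802 CPM in SM negative libraries 1, 2 and 3, and 739, 1013 and 829 CPM in SM positive libraries 1, 2 and 3. The fractions overlapped almost fully, with a log2 change of 0.025 ± 0.131 (SE) and a 95% interval of -0.064 to 0.11 with the block (edgeR adjusted p = 0.955 and 0.793 with the block). Acaca ranged over 124 to 176 CPM and its interval with the block was -0.069 to 0.11. It shares 33.4% of its 31-base stretches with other genes, Gm5182 first among them. Acly had 399.5, 503 and 429 CPM in SM negative libraries 1, 2 and 3, and 424, 565 and 456 CPM in SM positive libraries 1, 2 and 3. It was higher in SM positive in each pair, at 1.06, 1.12 and 1.06 times its partner, and did not pass (adjusted p = 0.735, and 0.0563 with the block). Acss2 and Me1, the malic enzyme that supplies NADPH, were also higher in each pair, at 1.01, 1.19 and 1.09 times and 1.04, 1.15 and 1.07 times, without passing (adjusted p with the block = 0.144 and 0.0916). Me1 shares 30.0% of its 31-base stretches, with Gm7049 first among the sources. Acacb, with 72 to 125 counts, had a log2 change of 0.29 ± 0.166 (SE) (adjusted p = 0.503). None of the 6 passed in either edgeR fit, in DESeq2 or in limma-voom, and at an unadjusted p under 0.05 the counts were 0 without the block and 3 with it (Acly, Acss2 and Me1), where 27.3% of all genes reached that p. Their median log2 change was 0.12.

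Desaturases and elongases shape the finished chain. Scd2 had 1689, 2199.8 and 1702 CPM in SM negative libraries 1, 2 and 3, and 1939, 2519.5 and 1967 CPM in SM positive libraries 1, 2 and 3. The fractions overlapped, with number 2 the highest library of each, while each SM positive library was 1.15, 1.15 and 1.16 times its partner. It rose in the block fit (log2 change 0.20 ± 0.0416, adjusted p = 0.00253; 0.596 without the block), and that call held in 1 of the 3 fits that left out a pair. Scd2 shares 6.81% of its 31-base stretches with other genes, Scd3 first among them, and its exons overlap Mir5114 on the same strand. Scd1 shares 8.14%, also with Scd3 first, and did not pass (adjusted p = 0.872 and 0.353 with the block). Fads3, a front-end desaturase family member, had 58.3, 58.1 and 70.8 CPM in SM negative libraries 1, 2 and 3, and 45.8, 47.5 and 62.9 CPM in SM positive libraries 1, 2 and 3. It was lower in SM positive in each pair and fell in the block fit (log2 change -0.27 ± 0.0481, adjusted p = 0.000704; 0.419 without), a call that held with any pair left out. Its neighbours Fads1 and Fads2, the delta-5 and delta-6 desaturases of polyunsaturated acids, did not pass, at log2 changes of -0.060 ± 0.0754 (SE) and 0.11 ± 0.136 (SE) (adjusted p with the block = 0.409 and 0.120).

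Of the elongases, Elovl7, which extends long saturated chains, ranged from 26.6 to 28.3 CPM in SM negative and from 29.5 to 33.5 CPM in SM positive libraries. The fractions did not overlap, and it rose in the block fit (log2 change 0.22 ± 0.0581, adjusted p = 0.0148; 0.235 without the block). Leaving out pair 1 ended that call (adjusted p = 0.247). Elovl6, which extends palmitate, spanned 284 to 406 CPM with a block interval of -0.058 to 0.11. Elovl1 and Elovl5, elongases of very long saturated and of polyunsaturated chains, had block intervals of -0.12 to 0.072 and -0.043 to 0.14. Over the 9 genes of this role the median log2 change was 0.052. The block fit called 2 higher and 1 lower, where it called 8.52% and 5.6% of all genes.

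Triglyceride is assembled from activated fatty acids and glycerol phosphate. Lpin1, the phosphatidate phosphatase that makes diacylglycerol (ENSMUSG00000020593.15, chromosome 12, 16535669 to 16610966, minus strand), had 56.8, 58.1 and 47.7 CPM in SM negative libraries 1, 2 and 3, and 73.4, 81.7 and 64.4 CPM in SM positive libraries 1, 2 and 3. All SM positive libraries were above all SM negative ones, at 1.29, 1.41 and 1.35 times their same-number partners. Its mean went from 54.2 ± 5.66 to 73.2 ± 8.65 CPM, 1.35-fold. The log2 change of 0.43 ± 0.0991 (SE) missed the threshold without the block (edgeR adjusted p = 0.0689) and passed with it (1.73e-06), with any pair left out, and in DESeq2 (adjusted p = 0.00456). The paralog Lpin2 differed by 0.090 ± 0.0578 (SE) (adjusted p = 0.554, and 0.201 with the block). The TPM ratio of Lpin1 to Lpin2 was 1.11, 1.08 and 0.912 in SM negative and 1.28, 1.44 and 1.20 in SM positive libraries. Each SM positive ratio was above each SM negative one, and no test was made of it.

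The other 4 assembly genes did not pass in either fit. Gpam, the mitochondrial acyltransferase of the first step, had 24.3, 31.5 and 34.8 CPM in SM negative libraries 1, 2 and 3, and 27.7, 34.0 and 32.8 CPM in SM positive libraries 1, 2 and 3, and the order of the fractions differed between pairs. Agpat2, the acyltransferase of the second step, spanned 37.5 to 46.3 CPM (block interval -0.21 to 0.022). Dgat1 and Dgat2, which close the triglyceride, were at 8.49 to 10.2 and 7.11 to 9.67 CPM, with block intervals of -0.19 to 0.23 and -0.12 to 0.30, wider at these 150 to 237 counts per library.

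**Figure D4:**
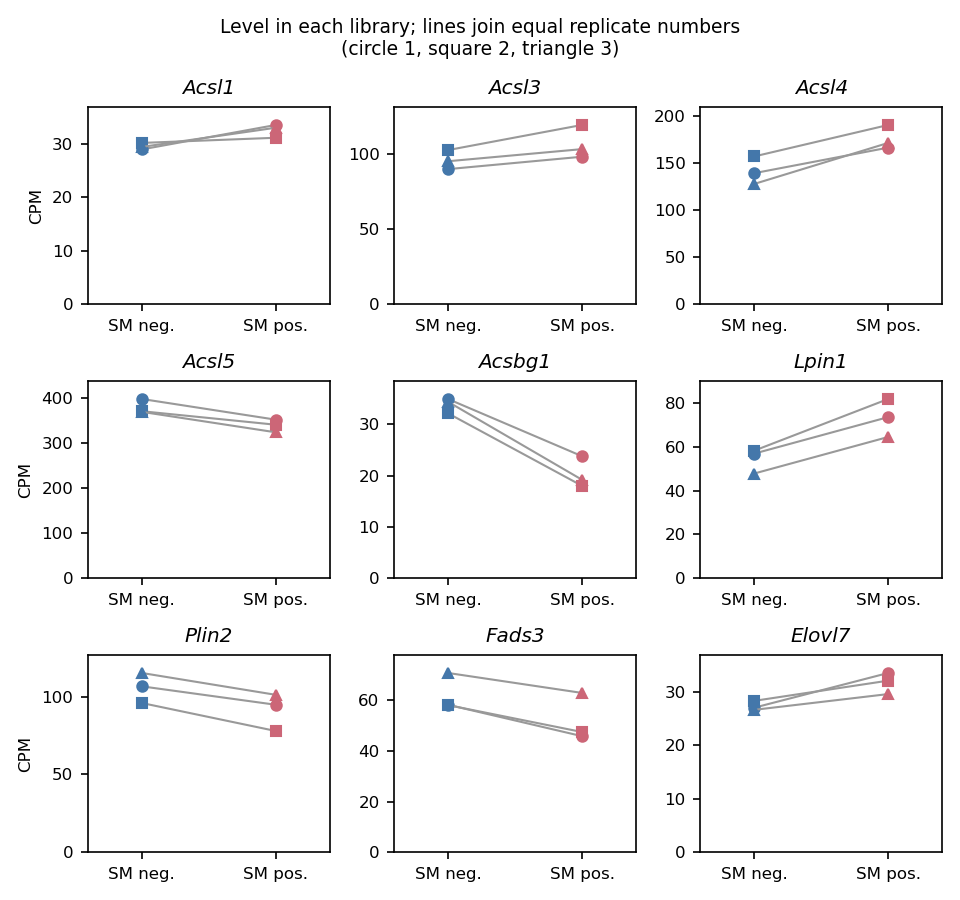
CPM in each library for the 5 synthetases, Lpin1, Plin2, Fads3 and Elovl7, with grey lines joining libraries of the same replicate number and every axis starting at 0. Lines for Acsl1, Acsl3, Acsl4, Lpin1 and Elovl7 all rise and those for Acsbg1, Acsl5, Plin2 and Fads3 all fall from SM negative to SM positive.

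Perilipins coat lipid droplets and gate the lipases that empty them. Plin2, the perilipin found on droplets of most cells, had 107, 95.9 and 115 CPM in SM negative libraries 1, 2 and 3, and 94.7, 77.9 and 101 CPM in SM positive libraries 1, 2 and 3. SM positive was lower in each pair, at 0.889, 0.812 and 0.878 times, although the fractions overlapped. It fell in the block fit (log2 change -0.22 ± 0.0433, adjusted p = 0.00187) and with any pair left out, but not without the block (adjusted p = 0.380), and it shares 5.05% of its 31-base stretches with other genes. Plin3, a coat that cycles between cytosol and droplets, spanned 45.0 to 52.3 CPM (block interval -0.13 to 0.070). Pnpla2, the triglyceride lipase ATGL, had 64.0, 57.5 and 69.0 CPM in SM negative libraries 1, 2 and 3, and 64.9, 55.9 and 60.8 CPM in SM positive libraries 1, 2 and 3. It overlapped between the fractions and did not pass (adjusted p = 0.782, and 0.415 with the block). Lipe, the hormone-sensitive lipase, was at 5.47 to 7.74 CPM (adjusted p = 0.705), and its exons overlap 4732471J01Rik on the opposite strand. Mgll, at 0.187 to 0.694 CPM, had a log2 change of -0.65 ± 0.426 (SE) with an interval of -1.60 to 0.29, too wide to read. The 5 tested genes had a median log2 change of -0.068. The block fit called 1 lower, where it called 5.6% of all genes lower. Without the block 0 were called by edgeR, DESeq2 or limma-voom. In edgeR without it 0 had an unadjusted p under 0.05, which 13.6% of all genes had.

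Fabp5, a cytosolic carrier of fatty acids, was the main binding protein at 146 to 197 CPM. It was lower in SM positive in each pair, at 0.889, 0.963 and 0.902 times, and fell in the block fit (log2 change -0.12 ± 0.0410, adjusted p = 0.0471; 0.591 without the block). That call held in 1 of the 3 fits that left out a pair, and the gene shares 9.21% of its 31-base stretches. Cpt1a, which admits acyl groups to mitochondria for oxidation, had 23.6, 22.6 and 23.7 CPM in SM negative libraries 1, 2 and 3, and 28.4, 22.7 and 24.7 CPM in SM positive libraries 1, 2 and 3. SM positive library 1 was above the other five, and the gene did not pass (adjusted p = 0.653, and 0.265 with the block).

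Counted by role, the block fit passed 4 of 5 synthetases (2 higher, 2 lower), 3 of 9 desaturases and elongases, 1 of 6 assembly genes, 1 of 5 droplet genes, 1 of 2 carrier and entry genes and 0 of 6 synthesis genes, where it called 14.1% of all genes. The counts for assembly and droplet genes, 1 of 6 and 1 of 5, are close to that share, and with so few genes 0 of 6 is not far from it. Of the 4 synthetase calls, that of Acsl3 held in 0 and that of Acsl5 in 1 of the 3 fits that left out a pair. Without the block 1 of the 5 synthetases was called, Acsbg1, against 1.35% of all genes. The median log2 change was 0.14 for synthetases, 0.12 for synthesis genes, 0.075 for assembly genes and -0.068 for droplet genes. That of the synthetases lies between 3 positive and 2 negative changes, so it does not describe a shared shift. No test of a difference between roles was made. Within same-number pairs, 15 of the 33 genes were higher in SM positive in all 3 pairs and 6 were lower in all 3, against 23.9% and 22.8% of all tested genes.

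For several synthesis and desaturation genes, libraries lay farther apart by replicate number than by fraction. Elovl6 had 289.7, 406 and 284 CPM in SM negative libraries 1, 2 and 3, and 297, 397 and 298 CPM in SM positive libraries 1, 2 and 3. Both number 2 libraries were the high ones, and the other 4 lay close together. Averaged over the fractions, the range between numbers was 0.46 for Elovl6, 0.41 for Fasn and 0.40 for Acaca on the log2 scale, where the fractions differed by 0.025, 0.021 and 0.022. Library 2 was the highest of its fraction in both fractions for 5 of 6 synthesis genes, 6 of 9 desaturation and elongation genes, and 15 of all 33 (45.5%), against 16.1% of all tested genes. Plin2 and Fads3 had number 3 highest in both, and Acsl5 and Acsbg1 number 1. This count was chosen after the values were seen, and what a replicate number stands for is not given in the labels. The range between numbers exceeded the difference between fractions for 24 of the 33 genes (72.7%), a share close to the 72.1% of all genes.

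**Figure D5:**
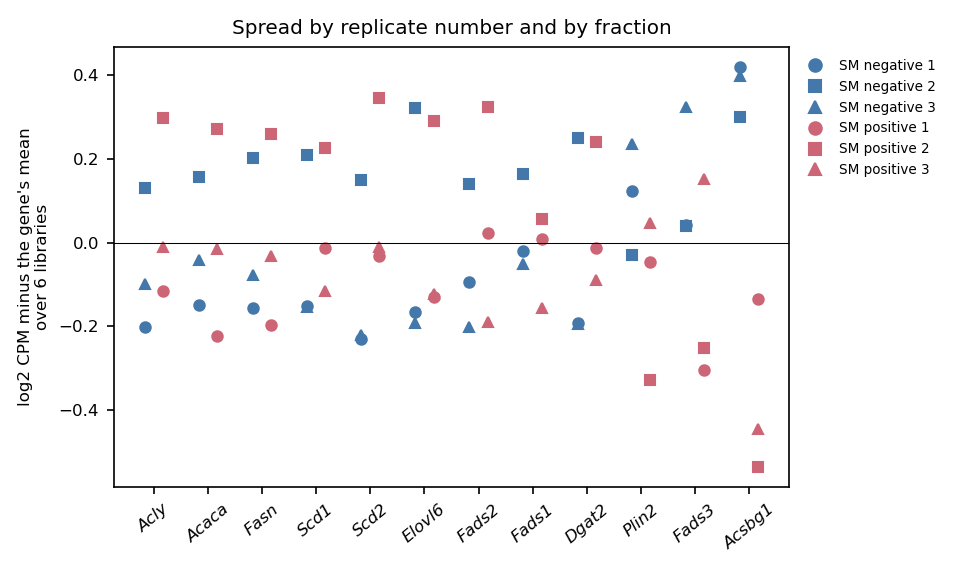
log2 CPM of 12 genes in each library, less the gene's own mean over the 6 libraries, with colour for the fraction and shape for the replicate number. Squares (number 2) stand highest in both fractions from Acly to Dgat2, whereas for Acsbg1 the fractions separate whatever the number.

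The other genes of the pathway, 113 on 6 lists, give the setting, and 79 of them were tested. Without the block 1 passed, the SREBP retention factor gene Insig1 (log2 change 0.25 ± 0.0491 (SE), adjusted p = 0.0388), and without any 1 library it did not pass (adjusted p = 0.0858 to 0.174); the block fit called 14 higher and 3 lower, 21.5% of the 79 against 14.1% of all genes. Of 15 tested control genes, 4 were higher with the block, where 8.52% of all genes were: Insig1, Insig2, the retinoid receptor gene Rxra and, named after its values were seen, Srebf2. Srebf1, which encodes the SREBP that drives fatty acid synthesis, was not called (log2 change 0.059 ± 0.0766 (SE), adjusted p = 0.804, and 0.463 with the block). Of 14 synthesis partners, 1 passed with the block (7.14%, against 14.1% of all genes). It was Hacd4, a dehydratase-family gene (log2 change 0.42 ± 0.0647, adjusted p = 0.000155). The list of other synthetases, transporters and thioesterases had 12 tested, of which that fit called 16.7%, against 14.1% of all genes. These were the fatty acid transporter gene Slc27a4, higher, and the thioesterase gene Acot7, lower. With 1 pair left out, the block calls of Insig1 and Hacd4 held in all 3 fits, those of Rxra and Slc27a4 in 2, and those of Insig2 and Acot7 in 1.

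Among the other glycerolipid and droplet genes, 6 of 18 tested were higher and 2 lower with the block, against 8.52% and 5.6% of all genes. Without it 0 passed by edgeR or limma-voom, DESeq2 called 2 higher, and 7 had an unadjusted p under 0.05, which 13.6% of all genes had. Abhd5, the co-activator of Pnpla2, went from 45.8 ± 1.70 to 56.1 ± 2.72 CPM (block adjusted p = 0.000312; 0.0611 without). Lipa, the lysosomal acid lipase, went from 13.6 ± 1.65 to 18.7 ± 0.918 CPM (0.000319; 0.0636 without). Ldah, a droplet-associated hydrolase, was also higher, with an adjusted p of 0.00101 in the block fit. Bscl2, which encodes the droplet-forming protein seipin, was lower at 0.0230 in the same edgeR fit, as was Soat2, named after its values were seen, at 43, 14 and 15 counts in SM negative and 10, 9 and 6 counts in SM positive libraries 1, 2 and 3. The calls of Abhd5, Lipa and Ldah held with any pair left out, and that of Bscl2 was lost with any (adjusted p = 0.0856 to 0.140). Among 17 tested genes of fatty acid oxidation, Acadm was the 1 called with the block (higher, adjusted p = 0.0343), 5.88% against 14.1% of all genes, and its call held in 1 of the 3 fits that left out a pair. In this list none passed without it by edgeR, DESeq2 or limma-voom, with 0 at an unadjusted p under 0.05.

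Marker genes were read for the identity of the cells. The epithelial genes Krt18 and Krt8 stood at 1056 and 1006 CPM in SM negative cells, and Krt5 had 0 counts. The epithelial list summed to 2994 to 3339 CPM. The block fit called 2 of its 6 tested genes lower (Epcam and Cldn4, named after their values were seen), against 5.6% of all genes. Fat cell markers summed to 0.187 to 0.608 CPM, with 4 of 7 at 0 counts (Adipoq, Lep, Cidec and Cfd) and Fabp4 and Retn the highest. Those of endothelium, led by Pecam1 and Vwf, summed to 0.478 to 0.694 CPM in SM negative and 0.187 to 0.423 CPM in SM positive libraries. Of these 6 endothelial genes, 0 had enough counts to be tested. Leukocyte markers summed to 14.9 to 16.0 CPM in SM negative and 12.1 to 14.6 CPM in SM positive libraries, nearly all from Cd14 and Cd68 (lower with the block, adjusted p = 0.0148), with 2 of 8 at 0 counts and Ptprc, the pan-leukocyte marker, at 0 or 1 count. Fibroblast markers summed to 4.36 to 4.97 and 5.84 to 8.10 CPM, chiefly Pdgfra (higher with the block, adjusted p = 0.0423) and Col1a1, with Lum and Thy1 (2 of 7) at 0. With any pair left out, neither Cd68 (adjusted p = 0.0613 to 0.115) nor Pdgfra (0.0564 to 0.427) passed in the block fit. Sums of the endothelial, leukocyte and fibroblast lists did not overlap between the fractions, and their part in the lipid gene differences was not tested. In sorted fractions of this kind, fewer cells that express a gene and less RNA per cell cannot be told apart.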

How the data were processed

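Polyadenylated RNA was sequenced from 6 libraries, 3 per fraction. The authors deposited expected counts for each gene (estimates, 13.5 to 14.4% of them not whole); FastQC 0.11.5, RSEM 1.3.1 and STAR 2.6.0a are listed, with GRCm38, per the submitters' processing notes. The release of the annotation and the strand setting were not given in the sources used here, and antisense reads may not be separated. Identifiers were matched without version to GENCODE M21 (GRCm38), at 99.8%. Library totals, 18733801 to 26533528 counts, limit precision for genes of few counts.

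Counts were rounded, filtered with filterByExpr, scaled by TMM and tested with edgeR 4.0.16 (R 4.3.3; robust quasi-likelihood F test, Benjamini-Hochberg over 14038 genes, threshold 0.05). The fit was first tested on simulated data. CPM are TMM-scaled; TPM use the union of exon lengths. Sequence overlap was counted in 31-base stretches of M21 transcripts. Upstream sequences are from RefSeq (GRCm38.p6), found for 32 of 38 genes. DESeq2 1.42.0, limma-voom (limma 3.58.1), other scalings, other filters and left-out libraries were alternatives.

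Deviations from the fraction means correlated at 0.196 to 0.280 between libraries of the same number and at -0.175 to -0.0435 between others. The deviations within a fraction cancel out, so positive same-number values make the others negative on average. The negative values are therefore not separate evidence of pairing. All 3 same-number values exceeded 0.1, so numbers were taken as pairs on the data, not the labels. All 38 members are named. From each of 6 further pathway lists, up to 3 genes per direction with the smallest block p and at least 1 CPM are named, and from each marker list the 2 with the highest mean. One result is not reported here. The members, lists and rules were chosen with earlier results of these data known.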

Additional observations from a re-analysis of the deposited data

How the results depend on the processing

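The replicate block had the greatest effect: 1982 of all genes passed against 190, and 5 higher and 5 lower of the 33 against 0 and 1. The block fits without pair 1, 2 or 3 passed 705, 1793 and 886 genes, with 2, 4 and 3 of the 33 higher and 3, 5 and 3 lower; of the 10 called with all pairs, 5 (Acsl4, Acsbg1, Lpin1, Plin2 and Fads3) held in all 3 such fits and Acsl3 in none. No filter gave 663 genes, 2 higher and 2 lower members, and DESeq2 gave 334 genes and 2 higher members. Leaving out 1 library without the block gave 25 to 123 genes and 0 to 1 lower members (0 without any SM negative library or without SM positive library 3). The members' median log2 change then ran from -0.014 (without SM positive library 2) to 0.12 (without SM negative library 2), and in the block fit without pair 3 it was 0.087. Fits with fewer libraries have less power to call genes, and the cause of these shifts was not tested. No member changed direction under RLE, library totals, either filter, DESeq2, limma-voom or the full block. Leaving out libraries or pairs turned the sign of small changes, none of which had been called; their log2 ranges were Acly -0.010 to 0.22, Acaca -0.11 to 0.14 (-0.025 with the block and without pair 2), Fasn -0.11 to 0.14, Scd1 -0.040 to 0.19, Fads1 -0.10 to 0.0095, Fads2 -0.032 to 0.23, Elovl1 -0.054 to -0.0038 (0.0024 with the block and without pair 1), Elovl5 -0.032 to 0.096, Elovl6 -0.13 to 0.21, Gpam -0.079 to 0.18, Dgat1 -0.050 to 0.072 (-0.096 with the block and without pair 2), Dgat2 -0.010 to 0.25, Plin3 -0.085 to 0.020 and Cd14 -0.22 to 0.042. Counts below about 20 per library, as for Mgll, limit what can be seen.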

Other observations

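The 2 stearoyl-CoA desaturases kept a steady ratio in SM negative cells and a higher one in SM positive cells: the TPM ratio of Scd2 to Scd1 was 12.8, 13.0 and 12.9 in SM negative libraries 1, 2 and 3 and 13.3, 14.7 and 14.5 in SM positive libraries 1, 2 and 3. The lipase to coat ratio of Pnpla2 to Plin2 was 0.699, 0.698 and 0.697 in SM negative and 0.797, 0.835 and 0.700 in SM positive libraries, so SM positive library 3 stood close to the SM negative ones. The ratio of Fasn to Acaca overlapped, at 9.04, 9.37 and 8.86 and 9.26, 9.0 and 8.98. Cpt1b, the muscle form of the mitochondrial acyl transfer enzyme, had 60 counts in SM negative library 1 and 0 to 6.93 counts in the other libraries, and was not tested. These ratios and this gene were chosen after the values were seen and carry no test.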
